A study of Homo sapiens with 8 samples.

Results

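DNA replication and mitosis genes are 49 human genes of the cell cycle, 27 that act in DNA replication and 22 that act in mitosis. They were chosen by function from a list of symbols, matched through the gene names in the authors' deposited comparison tables, and all 49 matched 1 annotated gene each among the 63677 in the count tables. Their transcripts were counted by RNA-seq in DND-41 and in MOLT-4, human cell lines derived from T-cell acute lymphoblastic leukaemia. The groups were DND-41 with ACBI-1, DND-41 with DMSO, MOLT-4 with ACBI-1 and MOLT-4 with DMSO, at 2 libraries each. ACBI-1 was given at 100 nM and DMSO is its solvent, each for 3 h. ACBI-1 is a small molecule that recruits a ubiquitin ligase to SMARCA2, SMARCA4 and PBRM1, subunits of the SWI/SNF (BAF) chromatin remodelling complexes, so that these proteins are degraded. Both lines are established leukaemia lines grown in culture, and each stands for itself only. Whether a group's replicates were grown as separate cultures is not said in the labels. Each p-value therefore rests only on how far these libraries spread, pooled in part over genes, and that spread may be technical.

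Replication genes are transcribed mainly as cells enter S phase, under the activating E2F factors, and their products license origins, unwind and copy DNA and supply nucleotides. Mitosis genes peak later, in G2 and M, under the MuvB complex with B-MYB and FOXM1, and their products drive entry into mitosis, build the spindle and separate chromosomes. Both programmes are silenced in resting cells by the DREAM complex and are high in cycling leukaemia cells. SWI/SNF remodellers open chromatin at promoters and enhancers, and the comparison asks how transcript levels stood soon after the start of treatment.

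Total counts per library lay between 19867779 and 20082524. Every member was well covered, the lowest count of any member in any library being 262 for CDC25C, and all 49 passed the filter on low counts in both lines. The line markers fitted the labels: TLX3 had 4611 to 7523 reads in DND-41 and no more than 9 in any MOLT-4 library, and TAL1 had 722 to 796 reads in MOLT-4 and no more than 4 in any DND-41 library. All 8 T-lineage markers were above 1 CPM (the count scaled to a common library size) in every group, while myeloid markers summed to at most 0.604 CPM and erythroid markers to at most 0.200 CPM in any library. The B-cell markers summed to between 1657 and 1870 CPM in DND-41 libraries, against 86.6 to 92.8 CPM in MOLT-4 libraries. The 2 DND-41 ACBI-1 libraries differed in their share of mitochondrial reads, at 17.4% and 13.3%, against 15.2% and 15.1% in the DND-41 DMSO libraries. In MOLT-4 that share was 17.8% and 19.5% with ACBI-1 and 19.3% and 20.04% with DMSO. In DND-41 DMSO replicate 2, 62 genes that mark MOLT-4 stood at 0.646% of their MOLT-4 level, against 0.0450% and 0.0456% in the ACBI-1 libraries. These genes had at least 20 CPM in MOLT-4 and were chosen to be at most 0.1% of that level in DND-41 DMSO replicate 1. The value in that library, 0.0391%, was thus low by choice. The members' calls in DND-41 are therefore also given without DMSO replicate 2. Of 8 epithelial and fibroblast markers, PDGFRB fell in DND-41 (log2 fold change -0.62 ± 0.09, and -0.47 without DMSO replicate 2). Its call was lost without ACBI-1 replicate 1 (-0.60) or ACBI-1 replicate 2 (-0.64). In DND-41 these 8 markers summed to between 34.0 and 35.3 CPM with ACBI-1, against 47.8 to 57.9 CPM with DMSO. Among the T-lineage markers CD3G and CD2 passed the test as higher with ACBI-1 in DND-41 with all 4 libraries. Both calls were lost without DMSO replicate 2 (log2 fold changes 0.36 and 0.39) or without ACBI-1 replicate 1 (0.34 and 0.30). That of CD2 was also lost without ACBI-1 replicate 2 (0.59). Each of these fits leaves 1 library in a group, and most DND-41 calls among all genes were lost in them. In MOLT-4 CD3G passed as higher and CD5 and CD7 as lower, and these calls were lost without either ACBI-1 library, and that of CD7 also without DMSO replicate 2 (0.430). The part of the mitochondrial share and of these markers in the results on the members was not tested.

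Most replication and mitosis genes were near their DMSO level after 3 h of ACBI-1. In DND-41, 4 of the 49 members passed edgeR's quasi-likelihood test at an adjusted p under 0.05, and in MOLT-4 2 of the 49 did. Among all genes tested, 9.83% were called in DND-41 and 10.8% in MOLT-4, so the members' calls were not more frequent than those of the background. UHRF1, which reads hemimethylated DNA at replication forks and recruits the maintenance methyltransferase, fell in both lines. In DND-41, AURKA and PLK1, kinases of mitotic entry and spindle assembly, also fell and BUB1, a kinase of the spindle checkpoint, rose. In MOLT-4, MCM10, which helps to activate the replicative helicase, rose. All 49 members had a 95% interval of the log2 fold change that lay within 0.5 of 0 in both lines, and 38 in DND-41 and 46 in MOLT-4 had one within 0.3 of 0. Of all genes tested, 8927 of 14019 in DND-41 and 9078 of 14470 in MOLT-4 had one within 0.5, and 5385 and 5608 within 0.3. The members' standard errors were smaller, with medians of 0.071 in DND-41 and 0.064 in MOLT-4, against 0.10 for all genes in each line.

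**Figure D1:**
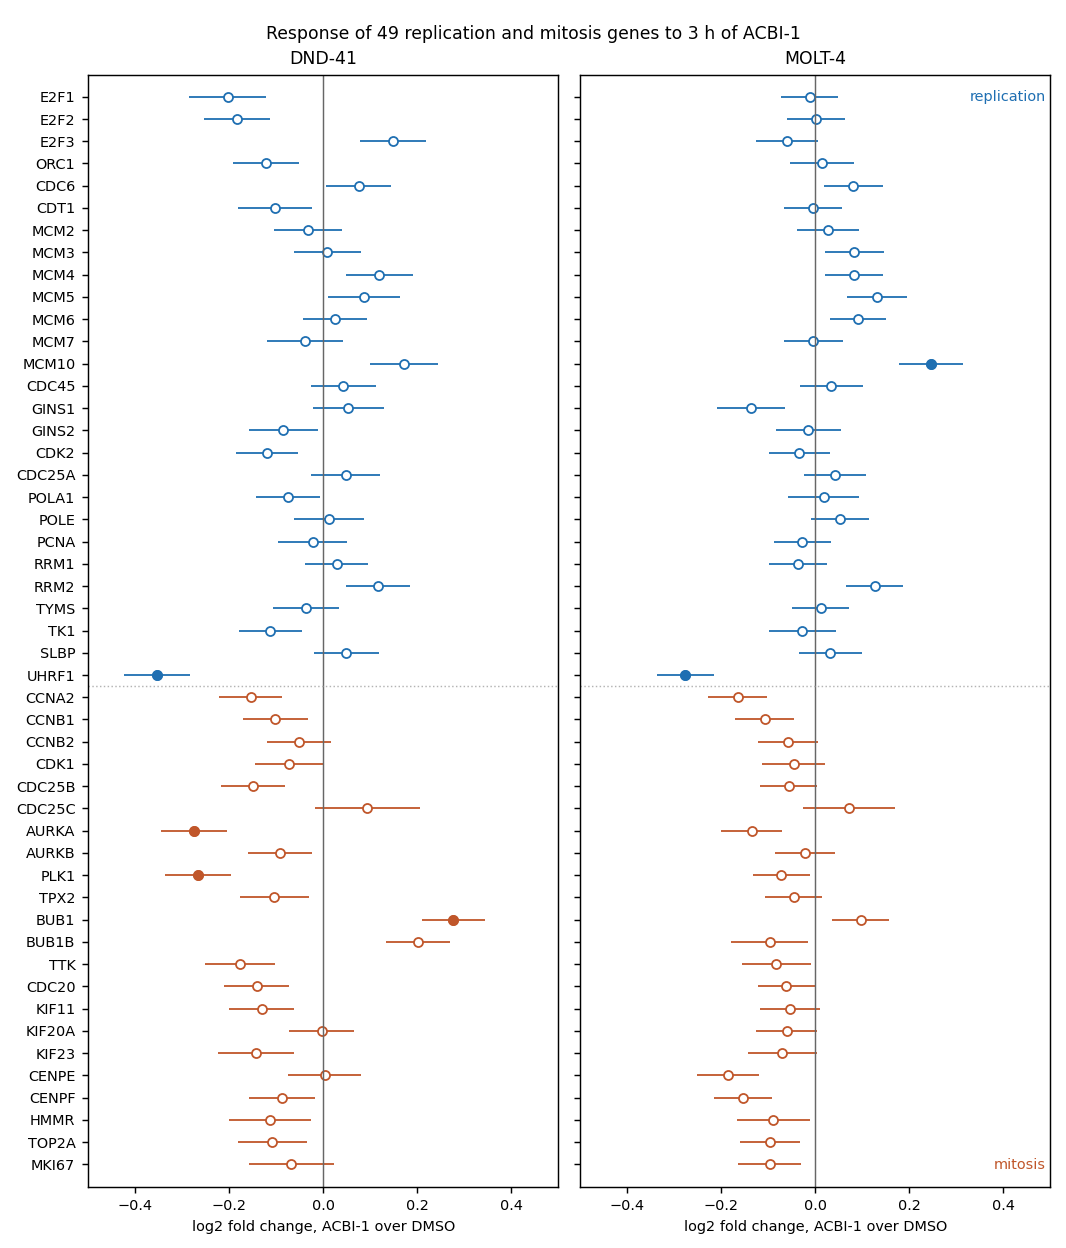
Log2 fold change of ACBI-1 over DMSO (horizontal axis) for each of the 49 members (vertical axis, ordered by role), in DND-41 and MOLT-4. Bars are standard errors from the fit, at 2 libraries per group. Filled points passed the test at an adjusted p under 0.05: UHRF1, AURKA, PLK1 and BUB1 in DND-41, and UHRF1 and MCM10 in MOLT-4.

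The 27 replication members were centred on no change in both lines. In DND-41 none rose and 1 fell, against 3.78% of all genes tested that rose and 6.05% that fell, and DESeq2 called the same gene, UHRF1, alone. At an unadjusted p under 0.05 there were 5 of 27 (18.5%) in DND-41 and 4 of 27 (14.8%) in MOLT-4, where 21.4% and 22.6% of all genes tested were, so these shares were not above the background. In MOLT-4 1 rose and 1 fell, against 3.9% of all genes that rose and 6.94% that fell. The median log2 fold change of the replication members was 0.0090 in DND-41 and 0.014 in MOLT-4, where that of all genes tested was 0.0029 and -0.00097. Members below 0 numbered 13 of 27 in DND-41 and 11 of 27 in MOLT-4. Both ACBI-1 libraries lay below both DMSO libraries for 6 of 27 members in DND-41 and 3 of 27 in MOLT-4, where 24.8% and 26% of all genes did so. Both lay above for 4 of 27 in DND-41 and 7 of 27 in MOLT-4, where 24.5% of all genes did so in either line. Summed over the 27 genes, the level was 6211 and 6767 CPM in the DND-41 ACBI-1 libraries, against 6454 and 6590 CPM with DMSO. In MOLT-4 the sum was 6641 and 6547 CPM with ACBI-1, against 6642 and 6307 CPM with DMSO, so the groups overlapped in both lines.

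**Figure D2:**
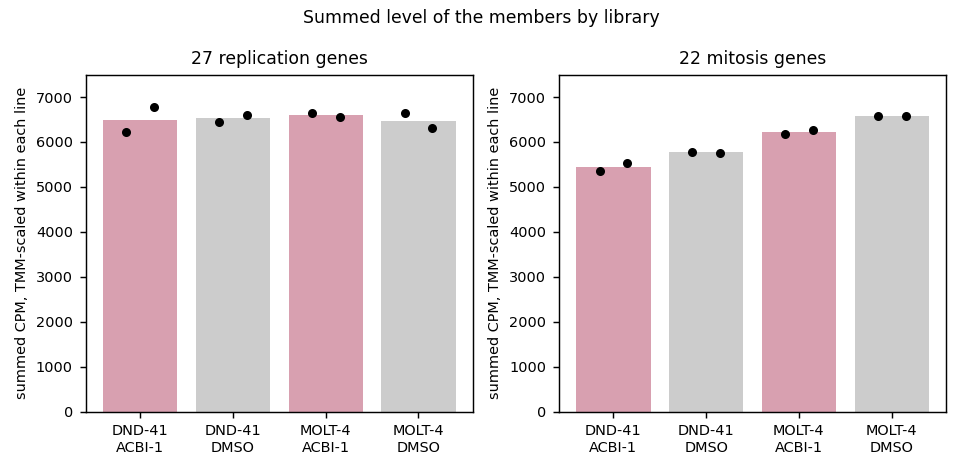
Summed CPM (vertical axis, TMM-scaled within each line) of the 27 replication genes and of the 22 mitosis genes by group (horizontal axis); bars are means and points the 2 libraries of a group. The replication sums overlap between ACBI-1 and DMSO in each line, and the mitosis sums with ACBI-1 lie below those with DMSO in each line.

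UHRF1 had 138 and 157 CPM in the DND-41 ACBI-1 libraries, against 186 and 191 CPM in the DMSO libraries. In MOLT-4 it had 279.6 and 279 CPM with ACBI-1, against 347 and 329 CPM with DMSO. Both ACBI-1 libraries were below both DMSO libraries in each line. The log2 fold change was -0.35 ± 0.07 (SE) in DND-41, adjusted p = 0.000664, and -0.28 ± 0.06 in MOLT-4, adjusted p = 0.00260. In DND-41 the call was lost without ACBI-1 replicate 1, where the log2 fold change was -0.26, and it held without DMSO replicate 2, at -0.33. Such a fit leaves 1 library in a group, and most DND-41 calls among all genes were lost in it. In MOLT-4 no gene of the whole table was called without either of the 2 ACBI-1 libraries, and UHRF1 then had an adjusted p of 0.341 without replicate 1 and 0.238 without replicate 2.

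MCM10 had 122 and 121 CPM in the MOLT-4 ACBI-1 libraries, against 110.0 and 95.4 CPM in the DMSO libraries. In DND-41 it had 104 and 119.6 CPM with ACBI-1, against 97.7 and 101 CPM with DMSO. The ACBI-1 libraries were the higher ones in both lines, without overlap. The log2 fold change was 0.25 ± 0.07 in MOLT-4, adjusted p = 0.0178, and 0.17 ± 0.07 in DND-41, adjusted p = 0.137. In MOLT-4 DESeq2 did not call it (adjusted p = 0.0576), nor did edgeR without ACBI-1 replicate 1 (0.474), ACBI-1 replicate 2 (0.346) or DMSO replicate 2 (0.354). Over the 4 fits with a library left out its log2 fold change ran from 0.15 to 0.35.

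The promoters of these members show what the replication genes share in sequence. RefSeq start-site windows (250 bases before to 50 after a start, GRCh38.p14) were at hand for 43 of the 49 members, and not for CDK2, MCM4, MCM5, AURKA, TTK or TPX2. An E2F element was searched on both strands as TTTCCCGC, TTTCGCGC, TTTGCCGC or TTTGGCGC, and 17 of 24 replication members (70.8%) held one in some window. The share was 1 of 19 mitosis members (5.26%), that one being CDK1, and 3.99% of 27305 genes with a window. The CCAAT box, the element of the NF-Y factor, was searched as CCAAT on both strands and stood in 19 of 24 replication members (79.2%), 17 of 19 mitosis members (89.5%) and 39.7% of all genes. None of the searched motifs contains another. The windows of the called replication members are shown in gene orientation, with E2F elements and CCAAT boxes in capitals.
UHRF1: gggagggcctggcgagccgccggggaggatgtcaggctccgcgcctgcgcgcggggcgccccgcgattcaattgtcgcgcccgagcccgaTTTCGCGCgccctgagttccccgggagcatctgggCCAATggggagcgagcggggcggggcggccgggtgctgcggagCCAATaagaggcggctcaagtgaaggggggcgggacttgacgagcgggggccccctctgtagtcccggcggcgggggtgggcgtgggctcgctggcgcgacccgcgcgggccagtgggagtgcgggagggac
MCM10: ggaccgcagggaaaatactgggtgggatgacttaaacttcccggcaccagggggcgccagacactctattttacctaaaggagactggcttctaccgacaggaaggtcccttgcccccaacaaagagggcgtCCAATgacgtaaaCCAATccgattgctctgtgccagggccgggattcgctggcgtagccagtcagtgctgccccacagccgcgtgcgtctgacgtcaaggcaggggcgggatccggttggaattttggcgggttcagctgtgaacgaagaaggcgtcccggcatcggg
The UHRF1 window is chr19:4909894-4910193, plus strand, and is the 1 of the gene's 3 windows with the most matches: an E2F element starting 160 bases before the start site and CCAAT boxes 125 and 82 bases before it. A window at another UHRF1 start also held 1 E2F element and 1 CCAAT box, and the remaining window held none. The MCM10 window is chr10:13161308-13161607, plus strand, with CCAAT boxes 118 and 105 bases before the start and no E2F match by these letters. A match is a string of letters and not a bound site, and other spellings of the elements were not searched.

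The activating E2F factors, which drive S-phase transcription, were not called. E2F1 had 123 and 159.7 CPM in the DND-41 ACBI-1 libraries, against 155 and 170.3 CPM with DMSO, and the groups overlapped (log2 fold change -0.20 ± 0.08, adjusted p = 0.123). E2F2 had 137 and 157 CPM with ACBI-1, against 169.8 and 164 CPM with DMSO, without overlap (-0.18 ± 0.07, adjusted p = 0.0986). Both values rested on single ACBI-1 libraries: without replicate 1 they were -0.027 for E2F1 and -0.089 for E2F2, and without replicate 2 they were -0.40 and -0.28. E2F3, chosen for the text after its values were seen, had 85.7 and 80.0 CPM with ACBI-1 in DND-41, against 75.5 and 73.9 CPM with DMSO, the ACBI-1 libraries being higher without overlap (0.15 ± 0.07, adjusted p = 0.211). In MOLT-4 E2F1 had 179 and 173 CPM with ACBI-1, against 182 and 173 CPM with DMSO, a log2 fold change of -0.012 ± 0.06 and an adjusted p of 0.942. E2F2 in MOLT-4 had 133 and 141 CPM with ACBI-1, against 136 and 138 CPM with DMSO, a log2 fold change of 0.0013 ± 0.06 and an adjusted p of 0.993. E2F3 in MOLT-4 had 72.3 and 73.5 CPM with ACBI-1, against 75.8 and 76.3 CPM with DMSO (-0.06 ± 0.07, adjusted p = 0.656).

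Origin licensing was measured through ORC1, CDC6 and CDT1, which recruit the MCM2-7 helicase to origins, and none was called in either line. CDC6 had 98.3 and 106 CPM in the DND-41 ACBI-1 libraries, against 98.7 and 94.7 CPM with DMSO, and 125 and 136 CPM in the MOLT-4 ACBI-1 libraries, against 123 and 124 CPM with DMSO. CDT1 had 263 and 327 CPM with ACBI-1 in DND-41, against 318 and 316 CPM with DMSO, and 287 and 267 CPM with ACBI-1 in MOLT-4, against 271 and 285 CPM with DMSO. The CDT1 groups overlapped in both lines and those of CDC6 in DND-41 only. The 6 helicase subunits had log2 fold changes from -0.039 to 0.12 in DND-41 and from -0.0044 to 0.13 in MOLT-4, with none called. MCM2 had 344 and 382 CPM with ACBI-1, against 363 and 379 CPM with DMSO, in DND-41. In MOLT-4 MCM2 had 349 and 337 CPM with ACBI-1, against 359 and 315 CPM with DMSO, and the groups overlapped in both lines. MCM5, the helicase subunit with the smallest p in MOLT-4, had 646 and 621 CPM with ACBI-1, against 604 and 551 CPM with DMSO (0.13 ± 0.06, adjusted p = 0.221).

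DNA synthesis and its nucleotide supply were not called either. PCNA, the sliding clamp, had 374 and 419 CPM in the DND-41 ACBI-1 libraries, against 396 and 409.7 CPM with DMSO, and 430.4 and 436 CPM in the MOLT-4 ACBI-1 libraries, against 452 and 432 CPM with DMSO. Its groups overlapped in both lines. RRM2, the regulated subunit of ribonucleotide reductase, had 296 and 291 CPM with ACBI-1 in DND-41, against 272 and 269.6 CPM with DMSO, and 369 and 351 CPM with ACBI-1 in MOLT-4, against 337 and 322 CPM with DMSO. Both RRM2 groups stood apart in each line, with log2 fold changes of 0.12 ± 0.07 (adjusted p = 0.336) and 0.13 ± 0.06 (adjusted p = 0.219). The 26 replication members not called in DND-41 had log2 fold changes from -0.20 to 0.17, and the 25 not called in MOLT-4 from -0.14 to 0.13.

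The 22 mitosis members lay mostly below their DMSO level by a small amount. In DND-41 1 rose and 2 fell, where 3.78% of all genes tested rose and 6.05% fell, and in MOLT-4 none was called by edgeR or by DESeq2. At an unadjusted p under 0.05 there were 7 of 22 (31.8%) in DND-41 and 4 of 22 (18.2%) in MOLT-4, where 21.4% and 22.6% of all genes were. The median log2 fold change was -0.10 in DND-41 and -0.07 in MOLT-4. Members below 0 numbered 18 of 22 in DND-41 and 20 of 22 in MOLT-4, where 49.4% and 50.2% of all genes tested were below 0. Both ACBI-1 libraries lay below both DMSO libraries for 12 of 22 members in DND-41 and 13 of 22 in MOLT-4, where 24.8% and 26% of all genes did so. Both lay above for 3 of 22 in DND-41 and 1 of 22 in MOLT-4, where 24.5% of all genes did so in either line. With each library left out in turn, 15 to 19 of 22 were below 0 in DND-41 and 16 to 20 of 22 in MOLT-4, with 17 in DND-41 without DMSO replicate 2. The median GC content of the transcripts was 43.2% for the mitosis members, 50.7% for the replication members and 48.6% for all genes tested in DND-41. After a correction for GC content 19 and 20 of the 22 were below 0, where 48% and 45.1% of all genes were. CCNA2 and TTK then joined the calls in DND-41, where the share of all genes called also rose, from 9.83% to 12.1%.

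The summed mitosis level was 5346 and 5523 CPM in the DND-41 ACBI-1 libraries, against 5786 and 5758 CPM with DMSO. In MOLT-4 it was 6169 and 6256 CPM with ACBI-1, against 6576 and 6577 CPM with DMSO. MKI67, which coats mitotic chromosomes, supplied more of the sum than any other gene. Without it the sums were 3754 and 3746 CPM with ACBI-1, against 4020 and 3992 CPM with DMSO, in DND-41. In MOLT-4 they were 3956 and 4051 CPM with ACBI-1, against 4174 and 4253 CPM with DMSO. The ACBI-1 sums stayed below the DMSO sums in both lines with MKI67 and without it. In bulk libraries of this kind fewer cells in G2 and M and less RNA per cell cannot be told apart.

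AURKA, the kinase of centrosomes and spindle poles, had 76.6 and 84.1 CPM in the DND-41 ACBI-1 libraries, against 97.8 and 96.6 CPM with DMSO. In MOLT-4 it had 126 and 135 CPM with ACBI-1, against 149.6 and 137 CPM with DMSO. The groups stood apart in both lines, with log2 fold changes of -0.27 ± 0.07 in DND-41 (adjusted p = 0.00848) and -0.14 ± 0.07 in MOLT-4 (adjusted p = 0.213). PLK1, the Polo kinase of mitotic entry, had 351 and 341 CPM in the DND-41 ACBI-1 libraries, against 414 and 419 CPM with DMSO. PLK1 in MOLT-4 had 403 and 418 CPM with ACBI-1, against 429 and 435 CPM with DMSO. It too was without overlap in each line, at -0.27 ± 0.07 in DND-41 (adjusted p = 0.0106) and -0.07 ± 0.06 in MOLT-4 (adjusted p = 0.539).

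BUB1, by contrast, was higher with ACBI-1. It had 256 and 240.1 CPM in the DND-41 ACBI-1 libraries, against 203 and 206 CPM with DMSO, and 178 and 181 CPM in the MOLT-4 ACBI-1 libraries, against 166 and 170.0 CPM with DMSO. The ACBI-1 libraries were the higher ones in both lines, with log2 fold changes of 0.28 ± 0.07 in DND-41 (adjusted p = 0.00548) and 0.10 ± 0.06 in MOLT-4 (adjusted p = 0.371). BUB1B, the checkpoint protein BUBR1, had 127 and 135 CPM in the DND-41 ACBI-1 libraries, against 118 and 109 CPM with DMSO (0.20 ± 0.07, adjusted p = 0.0556). In MOLT-4 BUB1B had 55.1 and 69.7 CPM with ACBI-1, against 67.1 and 66.4 CPM with DMSO, with overlap. The DND-41 calls of AURKA, PLK1 and BUB1 were each lost whichever of the 4 libraries was left out, as were most calls among all genes. Such a fit leaves 1 library in a group. Log2 fold changes then ran from -0.34 to -0.21 for AURKA, from -0.29 to -0.24 for PLK1 and from 0.23 to 0.32 for BUB1. Without DMSO replicate 2, in which the MOLT-4 markers stood at 0.646%, their log2 fold changes were -0.28, -0.26 and 0.29.

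**Figure D3:**
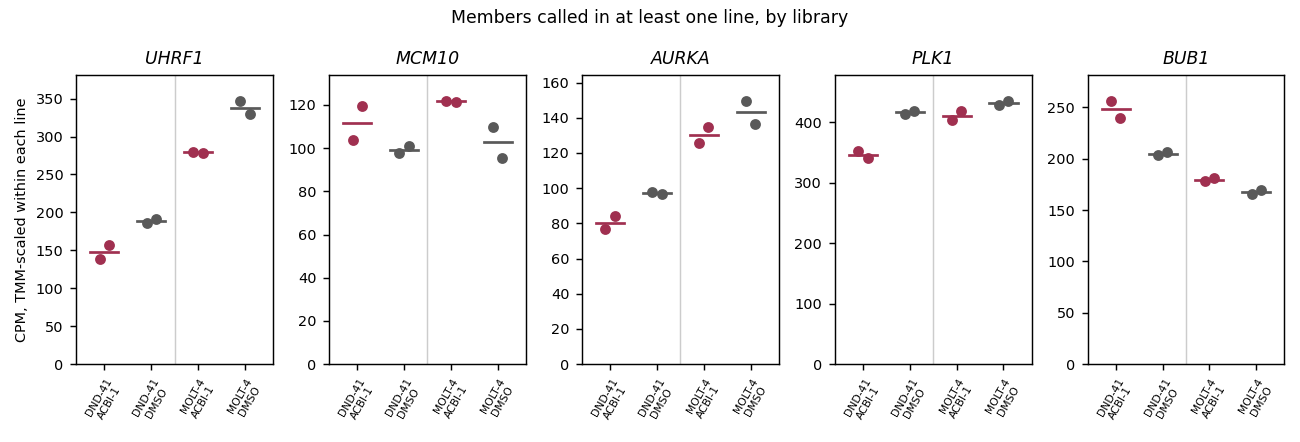
CPM (vertical axis, TMM-scaled within each line) of the 5 members called in DND-41 or MOLT-4, by group (horizontal axis); points are libraries and lines the mean of 2. Libraries with ACBI-1 lie below those with DMSO for UHRF1, AURKA and PLK1 and above them for MCM10 and BUB1; UHRF1 was called in both lines, MCM10 in MOLT-4, and AURKA, PLK1 and BUB1 in DND-41.

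Promoters of the mitosis genes differed in make-up from those of the replication genes. The CHR element, which MuvB binds, was searched as TTTGAA or TTTAAA on both strands, and stood in 16 of 19 mitosis members with a window (84.2%), 5 of 24 replication members (20.8%) and 27.9% of all genes. The windows of PLK1, which fell in DND-41, and BUB1, which rose there, are set out in gene orientation with CHR elements and CCAAT boxes in capitals. AURKA had no window.
PLK1: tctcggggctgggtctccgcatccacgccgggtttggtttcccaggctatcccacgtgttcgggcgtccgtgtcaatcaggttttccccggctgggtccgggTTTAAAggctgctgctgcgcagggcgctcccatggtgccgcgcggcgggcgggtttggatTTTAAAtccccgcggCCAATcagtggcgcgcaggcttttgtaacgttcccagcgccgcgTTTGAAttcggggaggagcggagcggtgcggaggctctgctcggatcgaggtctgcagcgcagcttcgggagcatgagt
BUB1: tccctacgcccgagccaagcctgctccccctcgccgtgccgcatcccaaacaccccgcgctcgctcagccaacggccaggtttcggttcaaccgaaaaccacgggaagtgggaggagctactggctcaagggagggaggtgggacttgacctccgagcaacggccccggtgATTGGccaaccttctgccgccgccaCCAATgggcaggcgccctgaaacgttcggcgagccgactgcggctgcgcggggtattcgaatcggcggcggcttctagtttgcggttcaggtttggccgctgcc
The PLK1 window is chr16:23678639-23678938, plus strand, with CHR letters 148, 88 and 29 bases before the start and a CCAAT box 73 bases before it. The BUB1 window is chr2:110678014-110678313, minus strand, with CCAAT boxes 79 and 54 bases before the start, one of them on the opposite strand as ATTGG, and no CHR match by these letters. Other spellings of the CHR were not searched, so this does not show that BUB1 lacks the element. Any tie between these letters and the responses was not tested.

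The cyclins and their kinase were lower in most ACBI-1 libraries and none was called. CCNA2, cyclin A, had 159 and 151 CPM in the DND-41 ACBI-1 libraries, against 173 and 172 CPM with DMSO (-0.15 ± 0.07, adjusted p = 0.153). In MOLT-4 CCNA2 had 169.5 and 183 CPM with ACBI-1, against 200.2 and 196 CPM with DMSO (-0.17 ± 0.06, adjusted p = 0.0929). CCNB1, cyclin B, had 87.9 and 89.4 CPM with ACBI-1 in DND-41, against 91.5 and 98.8 CPM with DMSO, and 101 and 102 CPM with ACBI-1 in MOLT-4, against 111 and 109 CPM with DMSO. Both cyclins were without overlap in each line. CDK1, their partner kinase, overlapped in both lines, with 96.7 and 84.3 CPM in the DND-41 ACBI-1 libraries, against 97.3 and 92.9 CPM with DMSO. In MOLT-4 CDK1 had 93.2 and 103 CPM with ACBI-1, against 97.7 and 105 CPM with DMSO.

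Kinetochore, chromosome and anaphase genes were likewise not called. CENPE, the kinetochore motor, had 76.5 and 82.5 CPM in the MOLT-4 ACBI-1 libraries, against 87.6 and 93.2 CPM with DMSO (-0.19 ± 0.07, adjusted p = 0.0779), but 49.2 and 47.2 CPM in the DND-41 ACBI-1 libraries, against 45.6 and 50.6 CPM with DMSO. CENPF, a kinetochore protein, had 279 and 256 CPM with ACBI-1 in MOLT-4, against 294 and 301 CPM with DMSO (-0.15 ± 0.06, adjusted p = 0.125). In DND-41 CENPF had 256 and 284 CPM with ACBI-1, against 292 and 282 CPM with DMSO, and both genes overlapped there. TOP2A, the topoisomerase that untangles chromosomes, had 518 and 494 CPM with ACBI-1 in DND-41, against 549 and 543 CPM with DMSO, and 559 and 579 CPM with ACBI-1 in MOLT-4, against 581 and 634 CPM with DMSO. MKI67 had 1592 and 1777 CPM with ACBI-1 in DND-41, against 1766 CPM in both DMSO libraries, and 2212 and 2206 CPM with ACBI-1 in MOLT-4, against 2401 and 2324 CPM with DMSO. The groups of both genes stood apart except those of MKI67 in DND-41. CDC20, the activator of the anaphase-promoting complex, had 285 and 311 CPM with ACBI-1 in DND-41, against 327 and 331 CPM with DMSO, and 314 and 297 CPM with ACBI-1 in MOLT-4, against 319 and 318 CPM with DMSO, without overlap in either line.

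No member was called for a difference in response between the lines. The interaction of treatment and line called 0 of the 49 members, where 0.641% of all genes tested were called, and DESeq2 called 0 as well. At an unadjusted p under 0.05 there were 3 of 49 members (6.12%), E2F2, PLK1 and BUB1B, where 7.64% of all genes tested were, so the share was not above the background. For PLK1 the response in DND-41 minus that in MOLT-4 was -0.22 ± 0.09 (log2), and for BUB1B it was 0.27 ± 0.11, with adjusted p of 0.486 and 0.488. For E2F2 it was -0.21 ± 0.10, adjusted p = 0.610. Without DND-41 ACBI-1 replicate 2 E2F1 was called, at -0.42 ± 0.10 and an adjusted p of 0.0252. The 95% interval of the difference lay within 0.5 of 0 for 48 of the 49 members and within 0.3 of 0 for 30. Of all 15604 genes tested, 7834 and 3360 had such intervals. Larger differences fell outside the interval for those members. The intervals are not adjusted for the number of genes, and only those of E2F2, PLK1 and BUB1B excluded 0. For the other members a smaller difference could not be told from none.

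**Figure D4:**
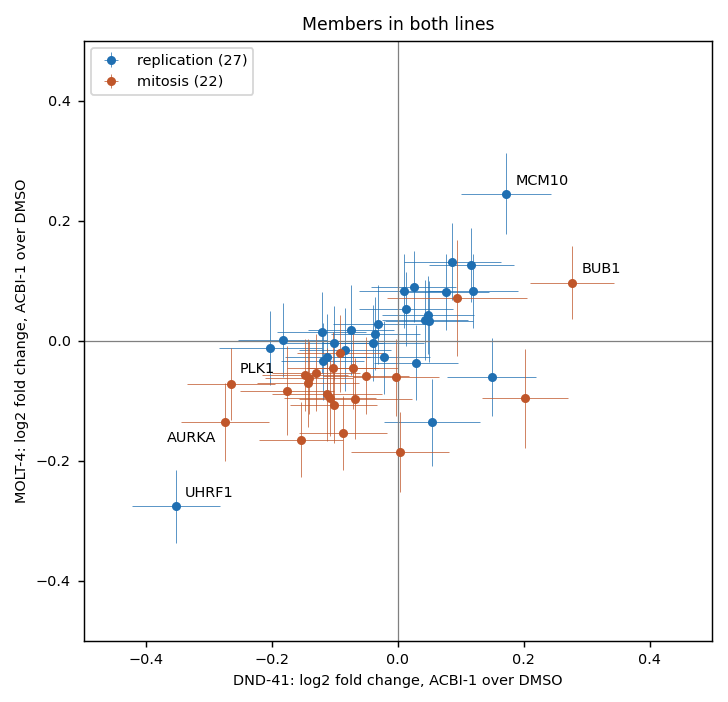
Log2 fold change of ACBI-1 over DMSO in DND-41 (horizontal axis) and in MOLT-4 (vertical axis) for the 27 replication and 22 mitosis members; bars are standard errors. Of the 49 members, 39 have the same sign in both lines, and 18 of the 22 mitosis members are below 0 in both.

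The log2 fold changes of the members had the same sign in DND-41 and MOLT-4 for 39 of 49 (79.6%), where 67.3% of all 12968 genes tested in both lines did. Across members, which are not independent replicates, Pearson's r was 0.61 and Spearman's rho 0.54 (n = 49). Across all genes r was 0.45 and rho 0.46. Without UHRF1 the members' r was 0.54, and over the 44 members called in neither line 0.40. Taken apart, the replication members had r = 0.66 and rho = 0.52 (n = 27). The mitosis members had r = 0.50 and rho = 0.24 (n = 22), a rho below that of all genes. The lines share no library, but each line's points rest on 2 libraries a group. Below 0 in both lines were 18 of 22 mitosis members (81.8%) and 8 of 27 replication members (29.6%), against 32.8% of all genes.

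The levels with DMSO differed between the lines for many members. DND-41 DMSO was higher than MOLT-4 DMSO for 12 and lower for 17 of the 49, a total of 29, where 64.4% of all genes tested were called, 31.6% higher and 32.8% lower. Among replication members 8 were higher and 7 lower, and among mitosis members 4 were higher and 10 lower. These levels are CPM scaled over all 8 libraries. With DND-41 DMSO replicate 2 left out, 26 of the 49 were called.

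TK1, the thymidine salvage kinase, had 112 and 119 CPM in DND-41 DMSO, against 62.7 and 57.7 CPM in MOLT-4 DMSO, a log2 difference of 0.94 ± 0.07. POLA1, the catalytic subunit of the primase polymerase, had 85.6 and 86.0 CPM in DND-41 DMSO, against 47.2 and 50.8 CPM in MOLT-4 DMSO (0.81 ± 0.07). TYMS, thymidylate synthase, stood at 0.55 ± 0.07 and MCM6 at 0.43 ± 0.06. UHRF1 had 183 and 189.5 CPM in DND-41 DMSO, against 352 and 334 CPM in MOLT-4 DMSO (-0.88 ± 0.07), so the gene that fell in both lines began from unequal levels. CDC6 (-0.39 ± 0.07), SLBP, which binds histone mRNA (-0.35 ± 0.07), and RRM2 (-0.32 ± 0.06) were also lower in DND-41. Adjusted p were at most 0.000145 for all 8 of these genes.

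BUB1B had 116 and 108 CPM in DND-41 DMSO, against 68.0 and 67.4 CPM in MOLT-4 DMSO (0.73 ± 0.08). AURKB, the kinase of the chromosomal passenger complex, had 224 and 228 CPM in DND-41 DMSO, against 131 and 142 CPM in MOLT-4 DMSO (0.72 ± 0.07). TTK, the checkpoint kinase MPS1, was at 0.26 ± 0.07 and BUB1 at 0.25 ± 0.06, and the call of TTK was lost without DND-41 DMSO replicate 2 (adjusted p = 0.0529). CENPE had 44.8 and 50.1 CPM in DND-41 DMSO, against 88.9 and 94.7 CPM in MOLT-4 DMSO (-0.95 ± 0.07). AURKA had 96.1 and 95.7 CPM in DND-41 DMSO, against 152 and 139 CPM in MOLT-4 DMSO (-0.60 ± 0.07), so the Aurora pair differed in opposite directions. CDC25C, a phosphatase that activates CDK1 (-0.66 ± 0.10), and KIF23, the motor of the central spindle (-0.53 ± 0.08), were lower in DND-41. The groups did not overlap for any of these 8 genes, and adjusted p were at most 0.00305.

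**Figure D5:**
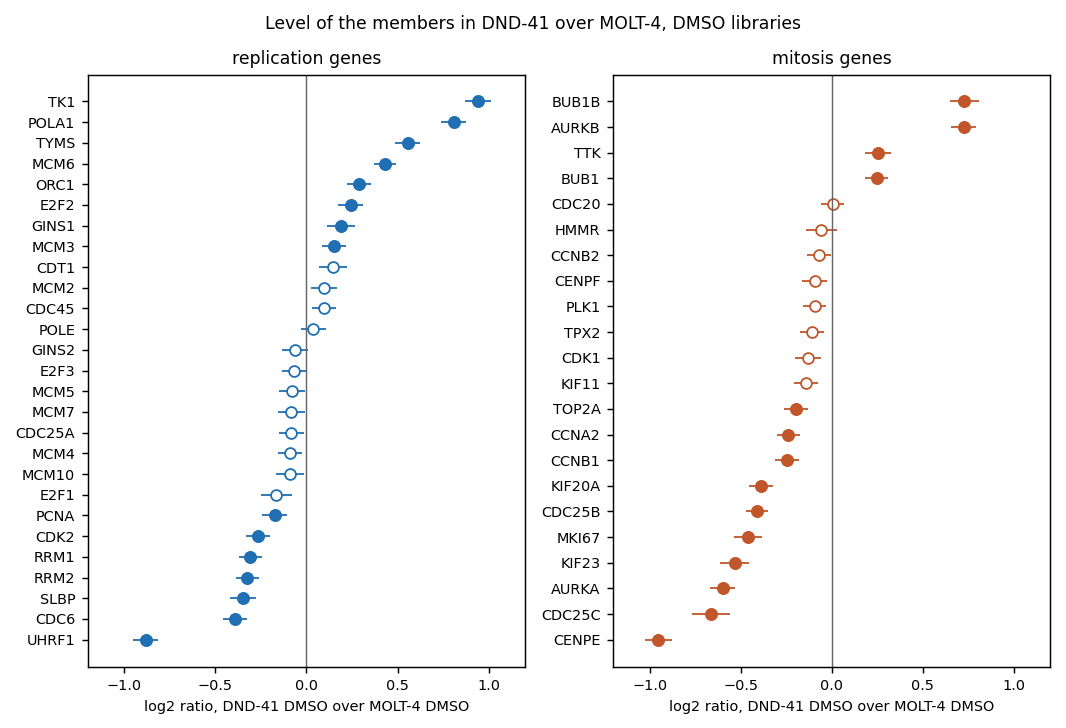
Log2 ratio of DND-41 DMSO over MOLT-4 DMSO (horizontal axis) for the replication and the mitosis members (vertical axis, by size). Bars are standard errors from the fit, at 2 libraries a group, and filled points passed the test at an adjusted p under 0.05. TK1 and POLA1 stand highest and UHRF1 lowest among replication members, and BUB1B and AURKB highest and CENPE lowest among mitosis members.

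Levels of different genes were compared per kb of exon length, in the DMSO libraries, from CPM scaled over all 8 libraries. PCNA, MCM7 and MCM3 stood highest of the replication members in both lines, PCNA at 270.1 CPM per kb in DND-41 and 305 in MOLT-4. POLA1 was the lowest, at 13.5 and 7.74 CPM per kb. CDC20, TPX2, the activator of AURKA, and MKI67 were the 3 highest mitosis members in both lines, from 136 to 159 CPM per kb in DND-41 and from 159 to 187 in MOLT-4. CDC25C was the lowest, at 3.90 and 6.16 CPM per kb. Exon lengths came from GENCODE 29, which is not the annotation of the files.

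Other genes of the same pathways were read from lists outside the 49. Of 50 other replication genes, 3 rose and 1 fell in DND-41 and 3 rose and 2 fell in MOLT-4. The shares called, 8% in DND-41 and 10% in MOLT-4, were close to the 9.83% and 10.8% of all genes tested. E2F8, an atypical E2F that represses E2F target genes, had 50.7 and 49.4 CPM in the DND-41 ACBI-1 libraries, against 89.6 and 83.8 CPM with DMSO, and 60.2 and 63.2 CPM in the MOLT-4 ACBI-1 libraries, against 91.3 and 90.9 CPM with DMSO. It fell by more than any member, at -0.79 ± 0.07 in DND-41 (adjusted p = 1.88e-09) and -0.56 ± 0.07 in MOLT-4 (adjusted p = 1.01e-06). Its call was lost without DND-41 ACBI-1 replicate 1 (log2 fold change -0.81), like most calls among all genes. In MOLT-4 it was lost, like every call there, without ACBI-1 replicate 1 (-0.53) or replicate 2 (-0.59). TIPIN, a fork protection protein, rose in both lines (0.37 ± 0.11 in DND-41 and 0.43 ± 0.11 in MOLT-4), as did POLD3, a subunit of polymerase delta (0.25 ± 0.08 and 0.22 ± 0.07). BRCA1 rose in DND-41 (0.26 ± 0.07), RFC2, of the clamp loader, rose in MOLT-4 (0.21 ± 0.07) and CCNE1, cyclin E, fell in MOLT-4 (-0.49 ± 0.10). The DND-41 calls of TIPIN, POLD3 and BRCA1 were each lost whichever library was left out, as were most calls among all genes. Their log2 fold changes then ran from 0.20 to 0.40. In MOLT-4 those of POLD3 and RFC2 were lost without either DMSO library too, and that of TIPIN without DMSO replicate 1, with adjusted p of up to 0.392 over these fits.

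Of 55 other mitosis genes, none rose in either line, 6 fell in DND-41 (10.9%) and 3 fell in MOLT-4 (5.45%), where 6.05% and 6.94% of all genes tested fell. Those below 0 numbered 42 of 55 (76.4%) in DND-41 and 36 of 55 (65.5%) in MOLT-4, where 49.4% and 50.2% of all genes were, with medians of -0.07 and -0.03. HJURP, the chaperone of the centromeric histone, fell in both lines (-0.26 ± 0.07 and -0.20 ± 0.06), as did CKAP2, a spindle protein (-0.22 ± 0.07 and -0.24 ± 0.06). PSRC1 (-0.30 ± 0.08), CCNF, cyclin F (-0.25 ± 0.07), WEE1, the kinase that holds CDK1 inactive (-0.23 ± 0.07), and KIF18A, a kinetochore motor (-0.31 ± 0.10), fell in DND-41. LMNB1, a nuclear lamin, fell in MOLT-4 (-0.21 ± 0.06). The DND-41 calls of HJURP, CKAP2, PSRC1, CCNF and WEE1 were lost whichever library was left out, as were most calls among all genes. Their log2 fold changes then ran from -0.35 to -0.17. The call of KIF18A held only without DMSO replicate 2 (log2 fold change -0.43). In MOLT-4 that of HJURP was lost without either DMSO library, and those of CKAP2 and LMNB1 without DMSO replicate 2, beside the loss without an ACBI-1 library, with adjusted p of up to 0.443.

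Among 14 E2F and DREAM regulators, E2F5 fell in DND-41 (-0.44 ± 0.11, adjusted p = 0.00937). The call of E2F5 was lost without ACBI-1 replicate 1, ACBI-1 replicate 2 or DMSO replicate 2, like most calls among all genes. Its log2 fold changes there ran from -0.51 to -0.36. In MOLT-4 CCND3, cyclin D3, rose (0.37 ± 0.06, adjusted p = 0.000180) and LIN54, the MuvB subunit that binds CHR elements, fell (-0.39 ± 0.07, adjusted p = 0.000174). CCND3 had 654 and 653 CPM in the MOLT-4 ACBI-1 libraries, against 528 and 483 CPM with DMSO. LIN54 had 61.0 and 65.4 CPM in the MOLT-4 ACBI-1 libraries, against 83.8 and 82.3 CPM with DMSO. Both groups stood apart for each gene, and both calls were lost without an ACBI-1 library (adjusted p up to 0.331). In DND-41 their log2 fold changes were 0.05 ± 0.09 and -0.0091 ± 0.08, without a call.

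In the authors' deposited table for DND-41, UHRF1, AURKA, PLK1 and BUB1 were the 4 members with an adjusted p under 0.05, among 603 genes. In the authors' deposited table for MOLT-4, UHRF1 was the 1 such member, among 696 genes. The sign of the deposited MOLT-4 log2 fold changes ran opposite to ACBI-1 over DMSO, with a correlation of -1 with those computed from the counts, and the DND-41 sign ran the same way, with a correlation of 1.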

How the data were processed

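RNA from 8 libraries, 2 for each line and treatment, was sequenced as stranded paired-end reads, per the labels' protocols. Raw read counts per gene were deposited by the authors, 1 table per line. The submitters' processing notes name hg19 as the build and STAR 2.5.2a, featureCounts and DESeq2 1.12.4 as tools. Which annotation was counted, and with what strand option, is not given in the sources used here. Overlapping and antisense genes can therefore share reads. Of the members, 6 have pseudogene entries by name, with at most 407 reads in a library (CDC20P1). Log2 fold changes, p-values and adjusted p-values of the authors' own comparisons were deposited per line, per the file headers.

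Each line was fitted on its 4 libraries with edgeR 4.0.16 (R 4.3.3): TMM scaling, filterByExpr, quasi-likelihood F-test, and Benjamini-Hochberg adjustment over all genes tested (14019 in DND-41, 14470 in MOLT-4), with a threshold of 0.05. The difference between lines and the DMSO levels came from a fit of all 8 libraries (15604 genes). SE is the size of the log2 fold change divided by the square root of F. The fit moderates each gene's spread over genes, so SE is not the spread of that gene's own libraries alone. CPM shown are scaled by TMM within a line, save for the following. Levels compared between the lines with DMSO, and levels per kb, were scaled by TMM over all 8 libraries. The cell-type marker sums and the MOLT-4 marker shares were scaled by total counts only. The code was tested on simulated data, with planted changes larger than those of any member and a spread common to all genes. That test does not show how often changes of the members' size would be called. The alternatives were DESeq2 1.42.0, other scalings, no filter, a replicate block, a GC correction (natural spline, 6 degrees of freedom) and leaving out each library. Replicates of a group differed by more than sampling noise, and most in DND-41 ACBI-1, with a mean chi-square per gene of 15.6. That mean was 2.99 in DND-41 DMSO, 4.25 in MOLT-4 ACBI-1 and 5.10 in MOLT-4 DMSO.

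The members, the lists of other genes and the tests were chosen with earlier results of these data known. Genes named are the called members, the 4 with the smallest p of the replication and of the mitosis members in each line, and a set of standard cell-cycle genes; for DMSO levels, the 4 largest called differences in each direction; from the other lists, called genes. Of the other lists, 2 entries had no gene in the files. Intervals cover the spread between libraries only, and a count of 0 would allow up to 3 reads.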

Additional observations from a re-analysis of the deposited data

How the results depend on the processing

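Called genes in DND-41 (1378) became 763 at an adjusted p under 0.01, 612 with DESeq2, 2 without a filter on low counts and 2230 with the replicate number as a block, and 3 to 632 with a library left out; in MOLT-4 (1568) they became 879 at 0.01, 689 with DESeq2 and 39 without a filter, and as few as 0 with an ACBI-1 library left out and up to 1430 otherwise. Mitosis members called in DND-41 (3) became 0 without a filter, 6 with the replicate block, 5 with GC correction and 0 without any of the libraries; replication members in DND-41 (1) became 0 without a filter, 4 with the block and 0 to 1 with a library left out. In MOLT-4 mitosis members called (0) became 3 with the block, and replication members (2) became 1 at 0.01 and with DESeq2, 0 without a filter and 0 to 2 with a library left out. Members called for the difference between the lines (0) became 1 without DND-41 ACBI-1 replicate 2. The median of the mitosis members in DND-41 was -0.094 with total-count scaling and -0.12 in a fit of all 8 libraries, and from -0.11 to -0.093 with a library left out. That of the replication members ran from -0.051 to 0.047 in DND-41 and from -0.0097 to 0.038 in MOLT-4 with a library left out, and in MOLT-4 was 0.041 with total-count scaling and 0.045 with GC correction. The cause of these changes was not tested. Of the named members' values under the alternatives, 450 kept their side of the threshold, 25 lost it, 9 gained it and 0 changed sign past it. Most of the 450 belonged to members without a call to lose. All 25 losses fell on the 4 calls in DND-41 and the 2 in MOLT-4.

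Same-numbered libraries deviated together only weakly (correlation 0.0422 in DND-41 and 0.0434 in MOLT-4 over 2 pairs), and no label ties a number to a shared batch, so the block is not evidence of pairing. The lowest count of any member in any library was 262. How far depth limits these values, beside the 2 libraries per group, was not tested.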
